A study of Homo sapiens with 6 samples.

Results

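The p38 kinase module was described in LX2, an immortal human line with the features of activated stellate cells, which make collagen in the injured liver. It was taken as 9 genes by symbol: the 4 p38 isoforms MAPK14 (p38 alpha), MAPK11 (p38 beta), MAPK12 (p38 gamma) and MAPK13 (p38 delta), the activating kinases MAP2K3 and MAP2K6, the MAP3 kinase MAP3K5, and the MAPKAP kinases MAPKAPK2 and MAPKAPK3. All 9 were among the 58243 genes of the table and all 9 passed the filter on low values, which left 18775 genes tested. The siAURKA group received interfering RNA that targets AURKA, the gene of the mitotic kinase Aurora A, and the siNC group a control interfering RNA, each for 48 h and with 3 libraries numbered 1 to 3. The siNC cells are labelled wild type and the siAURKA cells AURKA knockdown, and both groups are the same line in the same medium. The 9 genes were chosen by name, around the siAURKA to siNC difference of MAPK14 that was already known in these libraries. The differences between groups are therefore given as a description and support nothing. Calls from tests over all genes are given below beside their background. For the 9 genes these calls support nothing either, since the choice of genes favoured them.

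In p38 signalling a MAP3 kinase phosphorylates a MAP2 kinase, which in turn phosphorylates a threonine and a tyrosine in the activation loop of a p38 kinase. Active p38 phosphorylates transcription factors and other kinases, among them the MAPKAP kinases, which act on proteins that control the decay of inflammatory messenger RNAs. The pathway responds to stress and cytokines, and in stellate cells it has been studied for its part in activation and matrix production. Transcript levels do not show how much of a kinase is phosphorylated.

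The 4 p38 isoforms share a threonine-glycine-tyrosine motif in the activation loop, and the codons for it show how close the transcripts are. In the longest annotated coding sequence of each gene (GENCODE 29, GRCh38), the codons for threonine, glycine and tyrosine stood at positions 180 to 182 in MAPK14, MAPK11 and MAPK13 and 183 to 185 in MAPK12. They are printed 5′ to 3′ with those 3 codons in capitals and 18 bases on either side.
MAPK14: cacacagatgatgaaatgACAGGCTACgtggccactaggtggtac
MAPK11: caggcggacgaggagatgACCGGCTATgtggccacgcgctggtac
MAPK12: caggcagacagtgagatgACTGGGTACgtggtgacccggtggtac
MAPK13: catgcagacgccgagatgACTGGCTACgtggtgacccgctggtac
The whole coding sequences, loop included, were also compared. MAPK14 was identical to MAPK11 at 68.9% of aligned bases, to MAPK12 at 65.4% and to MAPK13 at 64.6%, and its longest exact run shared with any of them was 26 bases. No stretch of 75 bases in the annotated transcripts of MAPK14, MAPK11 or MAPK13 occurred in a transcript of another gene. MAPK12 shared 25% of its 75-base stretches with other genes, chiefly the adjacent HDAC10, so its level is uncertain.

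MAPK14 and MAPK13 lie on the plus strand of chromosome 6, 16.6 kb apart, and MAPK12 and MAPK11 lie on the minus strand of chromosome 22, 1.89 kb apart (GRCh38). MAPK14 (ENSG00000112062) spans 36027677 to 36111236, MAPK13 (ENSG00000156711) 36127809 to 36144524, MAPK12 (ENSG00000188130) 50245450 to 50261825 and MAPK11 (ENSG00000185386) 50263713 to 50270767. The promoter windows of the 4 isoforms are shown because MAPK14 and MAPK13 are neighbours with opposite differences below. Each runs from 250 bases before to 50 bases after the RefSeq start (GRCh38.p14), 5′ to 3′ on the gene's strand, at chr6:36027558-36027857 for MAPK14, chr22:50270331-50270630 for MAPK11, chr22:50261634-50261933 for MAPK12 and chr6:36130263-36130562 for MAPK13. The MAPK11 and MAPK13 windows lie wholly inside the gene spans above, since their RefSeq starts are downstream of the annotated gene starts. For MAPK13 the window begins at 36130263, against a gene start of 36127809. Capitals mark GC boxes (GGGCGG on either strand).
MAPK14: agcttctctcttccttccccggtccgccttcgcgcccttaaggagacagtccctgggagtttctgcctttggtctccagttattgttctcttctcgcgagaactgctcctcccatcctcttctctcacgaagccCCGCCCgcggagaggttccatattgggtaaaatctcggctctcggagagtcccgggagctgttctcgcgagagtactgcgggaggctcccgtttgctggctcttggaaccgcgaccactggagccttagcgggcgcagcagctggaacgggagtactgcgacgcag
MAPK11: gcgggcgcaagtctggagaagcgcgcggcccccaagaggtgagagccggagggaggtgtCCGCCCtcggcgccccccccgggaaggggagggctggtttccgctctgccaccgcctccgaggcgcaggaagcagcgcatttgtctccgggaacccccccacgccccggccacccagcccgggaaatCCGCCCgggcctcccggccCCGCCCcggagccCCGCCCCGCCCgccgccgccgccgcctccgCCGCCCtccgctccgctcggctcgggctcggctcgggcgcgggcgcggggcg
MAPK12: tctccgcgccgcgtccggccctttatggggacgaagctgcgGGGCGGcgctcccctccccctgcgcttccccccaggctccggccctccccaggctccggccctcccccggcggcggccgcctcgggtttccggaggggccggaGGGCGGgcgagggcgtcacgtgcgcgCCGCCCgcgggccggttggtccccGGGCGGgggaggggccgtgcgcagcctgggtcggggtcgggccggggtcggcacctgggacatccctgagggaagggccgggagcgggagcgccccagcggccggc
MAPK13: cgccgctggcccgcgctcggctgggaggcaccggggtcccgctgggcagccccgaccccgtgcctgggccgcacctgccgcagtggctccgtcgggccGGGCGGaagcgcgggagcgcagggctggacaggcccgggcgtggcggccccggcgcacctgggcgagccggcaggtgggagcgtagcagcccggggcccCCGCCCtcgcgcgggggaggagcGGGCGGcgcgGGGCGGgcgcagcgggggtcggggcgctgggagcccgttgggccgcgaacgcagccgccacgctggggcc
The MAPK14 window had a GC content of 60.3%, 24 CpG dinucleotides and 1 GC box. The windows of MAPK11, MAPK12 and MAPK13 had GC contents of 80.7%, 81.7% and 84%, with 44, 42 and 46 CpG dinucleotides and 6, 4 and 4 GC boxes, of which the MAPK11 boxes partly overlap each other. Over all 35116 RefSeq windows the median GC content was 58.7% and the median number of CpG dinucleotides 14, and 45% of windows held a GC box. The cAMP response element TGACGTCA (1.85% of windows) and the AP-1 site TGANTCA (7.71%), both searched on either strand, were in none of the 4 windows. These matches describe the letters in the windows and do not show binding.

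AURKA itself was at 135.8, 128 and 95.02 CPM in siNC replicates 1, 2 and 3 and at 49.8, 47.0 and 51.1 CPM in the siAURKA replicates, where CPM are deposited counts scaled to library size with TMM factors. The 3 siAURKA libraries were thus alike in AURKA. Deposited totals ran from 23366242 units in siNC replicate 2 to 53357402 units in siAURKA replicate 1. Apart from the others stood siNC replicate 2, which had the smallest total, the fewest genes above 0 and the highest count-weighted GC content, 53.3% against 49.2% to 52.2% in the other libraries. Both libraries numbered 1 stood apart too. They had the lowest GC contents, 49.2% in siNC and 49.4% in siAURKA, count-weighted mean exonic lengths of 7.03 and 6.83 kb against 5.42 to 5.67 kb in the others, and the nuclear RNA MALAT1 at 411 and 349 CPM against 72.5 to 192 CPM. Of the 12 stellate and myofibroblast markers, VIM averaged 6650 CPM and COL1A1 1490 CPM, whereas DES reached at most 0.840 CPM and LRAT 0.0477 CPM. SPARC averaged 639 CPM, TIMP1 483, COL3A1 93.7 and PDGFRB 32.4. ACTA2 averaged only 16.4 CPM, COL1A2 6.73, HAND2 4.6 and RGS5 4.42. The hepatocyte markers ALB, APOB and TTR were at 0 in every library, but SERPINA1 averaged 27.3 CPM. The summed CPM ranged over 7470 to 12300 in siNC and 6810 to 11700 in siAURKA for the stellate markers, over 5.44 to 10.5 and 10.3 to 16.9 for 6 endothelial markers, over 46.7 to 97.9 and 40.7 to 62.6 for 5 cholangiocyte markers, over 16.3 to 46.3 and 18.9 to 35.3 for 8 hepatocyte markers, and over 49.0 to 126 and 58.2 to 106 for 8 macrophage and leukocyte markers. Their part in the values below was not tested.

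By the siNC mean per kb of annotated exon, the MAPKAP kinases came first, although in siNC replicate 1 MAP2K3 (15.8 CPM per kb) lay just above MAPKAPK3 (15.4). In siNC (mean ± SD, n = 3) MAPKAPK2 was at 42.0 ± 12 CPM per kb, MAPKAPK3 at 28.5 ± 13.9 and MAP2K3 at 21.9 ± 9.87. The p38 isoforms followed, with MAPK11 at 7.34 ± 3.79 CPM per kb, MAPK14 at 7.23 ± 2.01 and MAPK12 at 5.59 ± 2.29. MAP3K5 was at 1.14 ± 0.444 CPM per kb, MAPK13 at 0.351 ± 0.114 and MAP2K6 at 0.267 ± 0.197. MAPKAPK2, MAPKAPK3 and MAP2K3 overlapped from each neighbour to the next within 1 SD, as did MAPK11, MAPK14 and MAPK12, and as did MAPK13 and MAP2K6. MAP3K5 stood apart from both of its neighbours by more than those SDs. This order depends on the annotated exon lengths, which reach 16.66 kb for MAP2K6. In CPM, the siNC mean was 6.025 ± 2.355 for MAP3K5, 4.45 ± 3.27 for MAP2K6 and 2.52 ± 0.818 for MAPK13. There MAP3K5 and MAP2K6 overlapped within 1 SD. The order of the isoforms differed too, with MAPK12 at 52.7 ± 21.6 CPM in siNC, MAPK14 at 49.6 ± 13.8 and MAPK11 lowest of these at 19.7 ± 10.2.

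MAPK14, the broadly expressed p38 isoform and the usual target of p38 inhibitors, had the largest fitted log2 fold change of the 9 genes in either direction. Its level was 35.1, 51.1 and 62.6 CPM in siNC replicates 1, 2 and 3 and 29.2, 8.28 and 12.6 CPM in siAURKA replicates 1, 2 and 3. All 3 siAURKA libraries were below all 3 siNC libraries, but siAURKA replicate 1 lay close to siNC replicate 1, and siAURKA replicates 2 and 3 lay far below. The siNC mean of 49.6 ± 13.8 CPM was 2.98 times the siAURKA mean of 16.7 ± 11 CPM (SD, n = 3). The log2 difference within same-numbered pairs was -0.27, -2.62 and -2.31 for numbers 1, 2 and 3. The edgeR log2 fold change was -1.57 (SE 0.51), and it was -2.26 without siAURKA replicate 1, which among the 6 edgeR fits with a single library left out moved it most. The libraries numbered 1, in which the MAPK14 pair difference was smallest, are those with the low GC content and high MALAT1 given above, whose part was not tested. AURKA transcript in siAURKA replicate 1 lay between its levels in siAURKA replicates 2 and 3. Within pairs 1, 2 and 3 the AURKA log2 differences were -1.45, -1.44 and -0.9. The part of AURKA level in the MAPK14 differences was not tested. MAPK14 had no annotated exonic base in common with another gene.

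MAPK13, the isoform best known from epithelial tissues, differed in the opposite direction from a low level. It was at 3.45, 1.91 and 2.21 CPM in siNC replicates 1, 2 and 3 and at 4.13, 5.04 and 4.43 CPM in the siAURKA replicates. The groups did not overlap, and as with MAPK14 the gap was smallest in pair 1. Means were 2.52 ± 0.818 and 4.53 ± 0.464 CPM (n = 3), with log2 differences of 0.26, 1.38 and 0.98 within pairs and an edgeR log2 fold change of 0.84 (SE 0.38). These levels rest on 40 to 229 deposited units per library, against 266 to 2235 for MAPK14.

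MAPK11 and MAPK12, the remaining isoforms, had overlapping groups. MAPK11 was at 10.5, 30.7 and 17.9 CPM in siNC and 15.1, 19.6 and 19.0 CPM in siAURKA. MAPK12, best known from skeletal muscle, was at 33.8, 76.2 and 48.0 CPM in siNC and 33.9, 60.5 and 62.3 CPM in siAURKA. For each of them siNC replicate 2 was the highest of the 6 libraries and siNC replicate 1 the lowest. Their edgeR log2 fold changes were -0.14 (SE 0.42) and -0.01 (SE 0.41), and without siNC replicate 2 they were 0.33 and 0.36.

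**Figure D1:**
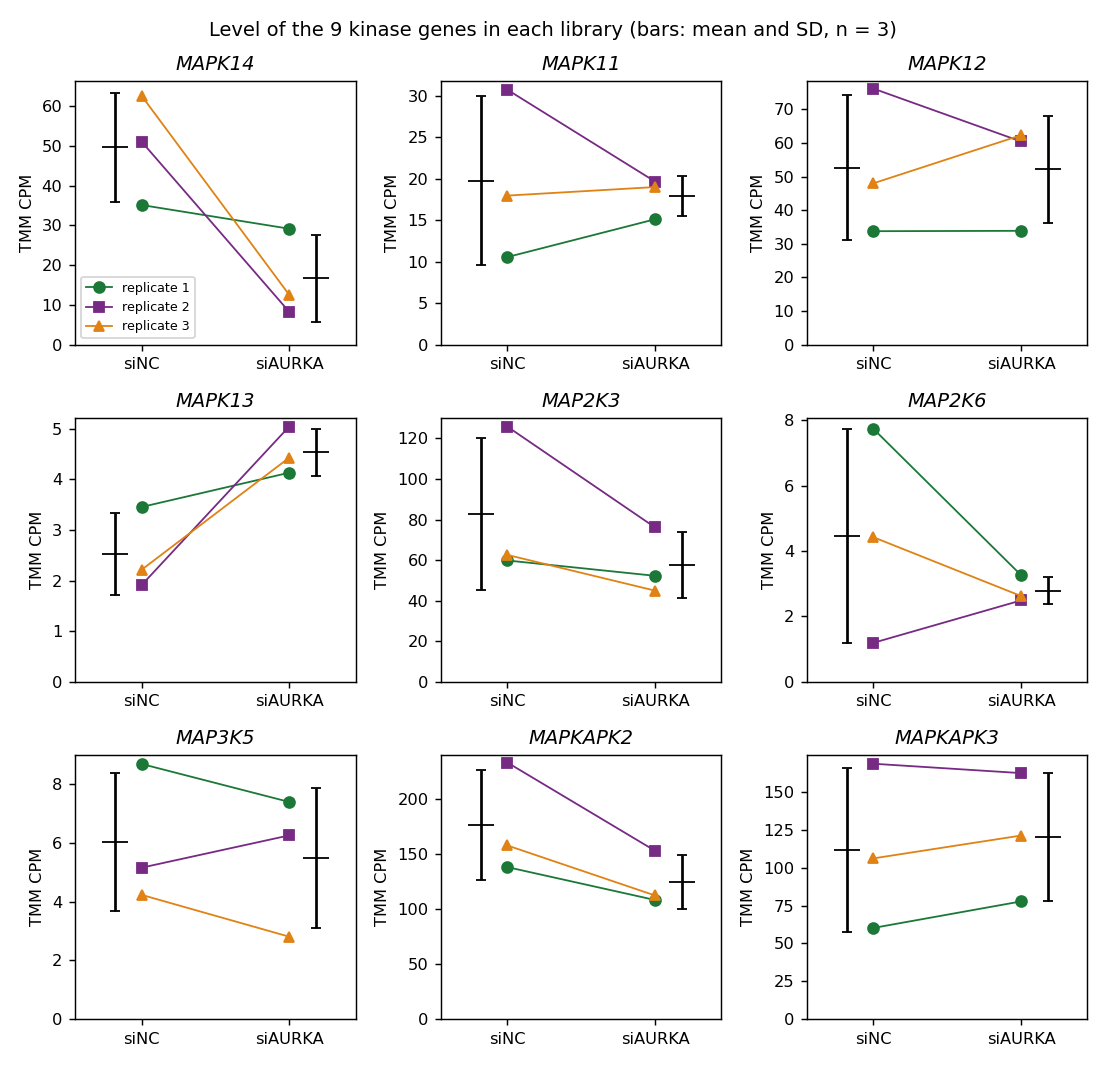
TMM-normalised CPM (linear axes from 0) of the 9 genes in siNC and siAURKA libraries, with lines joining libraries of the same replicate number and black bars giving mean and SD (n = 3). MAPK14 runs from 35.1 to 62.6 CPM in siNC and from 8.28 to 29.2 CPM in siAURKA, while MAPK13 lies higher in every siAURKA library than in any siNC library.

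MAPK14 was set against its paralogues pair by pair. The mean log2 difference of its 3 paralogues was 0.26, 0.13 and 0.48 in pairs 1, 2 and 3. That mean joins unlike values. In the same pairs MAPK11 had 0.52, -0.64 and 0.08, MAPK12 0, -0.33 and 0.38, and MAPK13 0.26, 1.38 and 0.98. On the group means MAPK11 had -0.02, MAPK12 0.02 and the scarce MAPK13 0.87. The MAPK14 difference minus the paralogue mean was -0.53, -2.75 and -2.79, or -2.02 on the group means. Leaving out 1 library gave -2.68 to -1.53, with the extremes without siAURKA replicate 1 and without siAURKA replicate 2. The contrast named in the choice of genes is this same one, so these values are a description.

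The make-up of the p38 transcript pool was taken from levels per kb. MAPK14 made up 39.1%, 27.4% and 43% of the summed p38 CPM per kb in siNC replicates 1, 2 and 3 and 30.3%, 7.72% and 11.3% in the siAURKA replicates. The siAURKA replicate 1 share lay between those of the siNC libraries, so the groups overlapped on this measure. MAPK11 made up 29.9%, 42% and 31.5% in siNC and 40%, 46.7% and 43.8% in siAURKA, and MAPK12 27.3%, 29.7% and 24% in siNC and 25.6%, 41.1% and 41% in siAURKA. Together they were the larger part in every library of both groups. MAPK13 stayed the smallest part, with 2.03% ± 1.43 in siNC and 4.13% ± 0.335 in siAURKA (n = 3). With the length of the longest transcript in place of all exons, the MAPK14 share was 41.5% ± 8.52 in siNC and 19.5% ± 14 in siAURKA, against 36.5% ± 8.15 and 16.4% ± 12.1. By that length the mean MAPK12 share, 29.3% ± 3.66 in siNC and 40.8% ± 10.7 in siAURKA, was above that of MAPK11. The MAPK11 share was then 27.5% ± 5.83 and 36.2% ± 3.42. The summed level of the 4 isoforms was 13.1, 27.2 and 21.2 CPM per kb in siNC and 14, 15.6 and 16.1 CPM per kb in siAURKA, with overlapping groups. In a bulk library fewer cells with a transcript and less transcript per cell cannot be told apart.

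**Figure D2:**
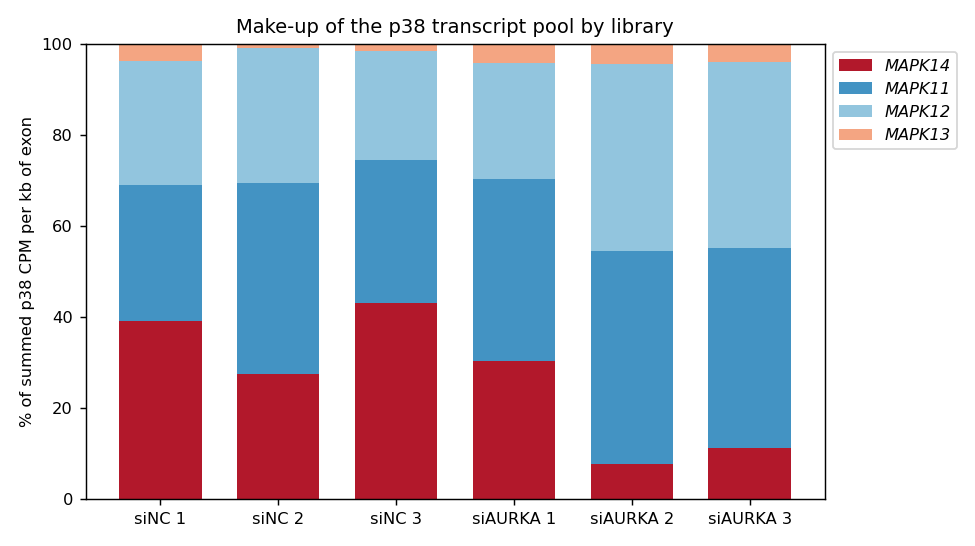
Share of each p38 isoform in the sum of the 4 isoforms, in percent of CPM per kb of annotated exon, for each of the 6 libraries. The MAPK14 part is 7.72% and 11.3% in siAURKA replicates 2 and 3, and 27.4% to 43% in siNC, with siAURKA replicate 1 at 30.3%.

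Among the activating kinases, MAP2K3 (MKK3) was lower in siAURKA in all 3 pairs with overlapping groups. Its level was 59.8, 125.8 and 62.6 CPM in siNC replicates 1, 2 and 3 and 52.3, 76.1 and 44.9 CPM in the siAURKA replicates. siNC replicate 2 was far above the other siNC libraries, and the edgeR log2 fold change of -0.52 (SE 0.40) was -0.08 without it. MAP2K6 (MKK6), the other p38-activating MAP2 kinase, was scarce, at 7.74, 1.19 and 4.42 CPM in siNC and 3.27, 2.49 and 2.63 CPM in siAURKA. Its siNC libraries spread 6.49-fold and enclosed all siAURKA values, and in siNC replicate 2 it rested on 25 deposited units. The edgeR log2 fold change of -0.68 (SE 0.62) was -0.01 without siNC replicate 1. Per kb, MAP2K3 exceeded MAP2K6 in each library, by ratios of 34 to 464 in siNC and 70.5 to 135 in siAURKA. These ratios rest on annotated exon lengths of 3.78 kb for MAP2K3 and 16.66 kb for MAP2K6. In CPM, MAP2K3 was also the higher in each library, but by smaller ratios. MAP3K5 (ASK1), the MAP3 kinase held inactive by reduced thioredoxin, was at 8.69, 5.15 and 4.23 CPM in siNC and 7.40, 6.26 and 2.80 CPM in siAURKA. The groups overlapped, although siAURKA replicate 3 lay below every siNC library. Its edgeR log2 fold change of -0.14 (SE 0.48) changed sign without siNC replicate 1 (0.23) or without siAURKA replicate 3 (0.17).

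The MAPKAP kinases, the downstream arm, differed from each other. MAPKAPK2 (MK2), the main p38 alpha effector on inflammatory messenger RNAs, was at 138, 233 and 158 CPM in siNC and 108, 153 and 112 CPM in siAURKA. It was lower in all 3 pairs, by log2 differences of -0.35, -0.61 and -0.49, while the groups overlapped through siNC replicate 1 and siAURKA replicate 2. The edgeR log2 fold change was -0.50 (SE 0.32), and -0.25 without siNC replicate 2. Its close relative MAPKAPK3 (MK3) was at 60.2, 168.8 and 106 CPM in siNC and 77.7, 162.6 and 121.3 CPM in siAURKA, with a log2 fold change of 0.11 (SE 0.45). The ratio of MAPKAPK3 to MAPKAPK2 per kb, which is taken within a library, was 0.466, 0.774 and 0.72 in siNC and 0.768, 1.14 and 1.16 in siAURKA. It was higher in siAURKA in all 3 pairs, by 0.72, 0.56 and 0.69 on the log2 scale, although siAURKA replicate 1 stood just below siNC replicate 2. Of the exonic bases of MAPKAPK3, 5.56% overlap another gene.

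**Figure D3:**
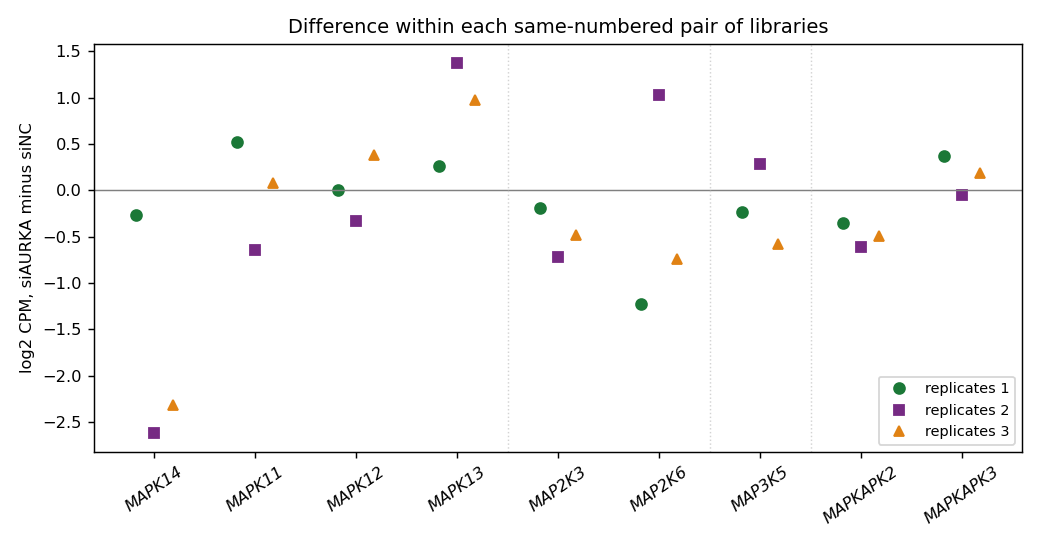
Difference in log2 CPM (prior count 2), siAURKA minus siNC, within each same-numbered pair of libraries for the 9 genes, with dotted lines between p38 isoforms, MAP2 kinases, MAP3K5 and MAPKAP kinases. MAPK14 is at -0.27, -2.62 and -2.31, MAPKAPK2 lies between -0.61 and -0.35, and MAP2K6 has both signs.

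Several members had their extreme value in a single library. siNC replicate 2, the library of highest GC content, held the highest level of 5 of the 9 genes, which are MAPK11, MAPK12, MAP2K3, MAPKAPK2 and MAPKAPK3, with transcript GC contents of 56.8% to 65.3%. It held the lowest level of MAPK13 (52.1% GC) and MAP2K6 (38.5% GC). MAPK14 (46.3% GC) was intermediate there, and its log2 fold change without that library was -1.55, close to the -1.57 with it. The part of base composition in these levels was not tested.

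**Figure D4:**
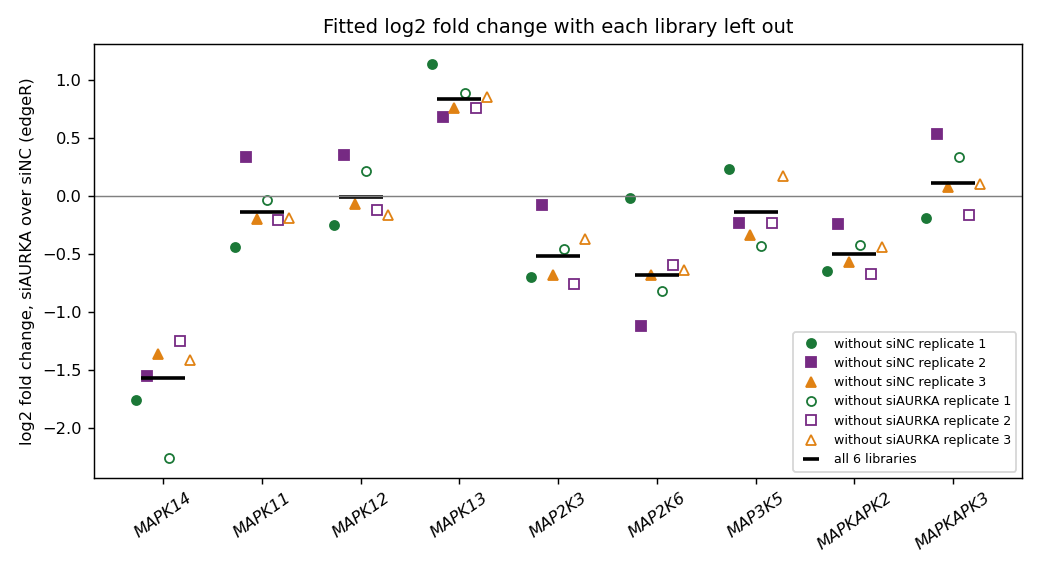
edgeR log2 fold change, siAURKA over siNC, of each gene with all 6 libraries (black bars) and with each library left out (symbols). MAPK14 stays between -2.26 and -1.25 and MAPK13 between 0.68 and 1.14, whereas MAPK11, MAPK12, MAP3K5 and MAPKAPK3 change sign.

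Calls over the whole table put these counts beside their background. At a Benjamini-Hochberg adjusted p of 0.05, edgeR's quasi-likelihood test called 0 of the 9 genes and 0% of all tested genes. At an unadjusted p below 0.05 it had 1 of the 9 and 237 of all 18775 genes. AURKA, the target of the interfering RNA, was not called by edgeR either, at a log2 fold change of -1.28 (SE 0.28, unadjusted edgeR p 0.00198). Hence 0 edgeR calls do not show that levels were alike. DESeq2 called 0 of the 9 and 0.091% of all genes. It called AURKA at an adjusted p of 0.0314, or 1.4e-06 with the replicate number as a block. DESeq2 with the replicate number as a block called 1 of the 9, MAPK14, where it called 1.67% of all genes in either direction and 1.03% as lower. That call was lost without the libraries numbered 2 or those numbered 3, where the log2 fold change was -1.29 and -1.47. It was kept without those numbered 1, where the log2 fold change was -2.49. Each of these fits holds only 2 pairs. Groups did not overlap for 2 of the 9 genes, against 5.85% of all genes (3.33% higher, 2.52% lower). All 3 pairs were higher for 1 of the 9 and lower for 3, against 17.9% and 17.6% of all genes. Since this contrast was known when the genes were chosen, nothing is read from these counts.

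Genes with a pattern most like MAPK14 were sought by Pearson correlation of log2 CPM over the 6 libraries among 12068 genes with a mean of at least 5 CPM. The 5 highest were POLR3G (r = 0.978), which encodes an RNA polymerase III subunit, FRAT1 (0.977), which encodes a GSK3-binding protein, QTRT2 (0.971), which encodes a queuine tRNA-ribosyltransferase subunit, MRPS35 (0.970), which encodes a mitochondrial ribosomal protein, and FAM219B (0.964). With 6 libraries and so many genes, coefficients of this size are a description of the libraries. POLR3G was at 62.0, 78.1 and 103.8 CPM in siNC and 38.2, 18.1 and 19.1 CPM in siAURKA. QTRT2 was at 17.2, 19.9 and 19.8 CPM in siNC and 15.9, 4.51 and 5.47 CPM in siAURKA. FAM219B, with 42.5% of its exonic bases inside other genes, was at 29.4, 32.1 and 32.2 CPM in siNC and 26.8, 4.98 and 8.39 CPM in siAURKA. In QTRT2 and FAM219B, as in MAPK14, siAURKA replicate 1 lay near the siNC libraries and siAURKA replicates 2 and 3 far below.

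Genes around the module were read from 5 lists with 98 genes, of which 92 were tested. edgeR's quasi-likelihood test called 0 of the 92, with 1 at an unadjusted p below 0.05, and DESeq2 called 0. DESeq2 with the replicate block called 2 of the 89 that had an adjusted p, or 2.25%, near the 1.67% of all genes. The lists were written with earlier results of these data known, and no list is set apart from other genes here.

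ATF1, a CREB-family transcription factor that p38-activated kinases phosphorylate, rose with DESeq2 and the replicate block. It was at 18.6, 12.1 and 10.6 CPM in siNC and 36.9, 19.6 and 30.3 CPM in siAURKA, with no overlap and a higher value in all 3 pairs. Its log2 fold change in that fit was 1.05 (SE 0.26, adjusted p 0.0085). The call was lost without the libraries numbered 1 (log2 fold change 1.09, adjusted p 0.36 in that DESeq2 fit) or 3 (0.82 and 0.89). It was kept without those numbered 2 (1.24 and 0.000956). Such fits, here and for MAPK9 below, hold only 2 pairs, so a lost call can also reflect fewer libraries. MAPK9 (JNK2), a stress-activated kinase of the sister JNK branch, fell in the same fit. It was at 136.6, 99.3 and 105.6 CPM in siNC and 96.5, 70.7 and 66.2 CPM in siAURKA, lower in all 3 pairs and without overlap. Its log2 fold change was -0.57 (SE 0.16, adjusted p 0.0338 in that DESeq2 fit), and without the libraries numbered 1, 2 and 3 it was -0.60, -0.59 and -0.53, with adjusted p of 0.58, 0.058 and 1.

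The other lists held 0 further calls. Among the 13 tested of 15 other MAP kinases and MAP2 kinases the median edgeR log2 fold change was -0.13 (5 above 0, 8 below), with -0.01 over all tested genes. MAPK3, a growth factor-activated MAP kinase, averaged 128 ± 56.8 CPM in the siNC libraries and 135 ± 45.8 CPM in the siAURKA libraries (n = 3). The MAP2 kinases MAP2K1 and MAP2K2, which phosphorylate MAPK3, had log2 fold changes of -0.24 and -0.28, and the atypical kinase MAPK6 had -0.47. Of 27 upstream MAP3 kinases, adaptors and activators 13 were above 0 and 14 below. RAC1, a small GTPase upstream of p38, was at 201.5, 311.2 and 216.4 CPM in siNC and 371.8, 366.6 and 350.0 CPM in siAURKA, with no overlap. GADD45B and GADD45G, stress proteins that bind a MAP3 kinase upstream of p38, had log2 fold changes of -0.56 (SE 0.34) and -1.11 (SE 0.54), with overlapping groups. GADD45G was scarce, at 1.39 to 3.53 CPM in siNC and 0.848 to 1.85 CPM in siAURKA, on 31 to 107 deposited units. MAP3K11 and CDC42 had -0.16 and -0.004. CDC42 shares 59.4% of its exonic bases with other genes.

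The 9 tested of 12 phosphatases acting on p38 had a median of -0.21 (2 above 0, 7 below), which was 0.06 without siNC replicate 2. DUSP1, the stress-induced dual-specificity phosphatase, averaged 46.4 ± 36.0 CPM in the siNC libraries and 28.4 ± 8.73 CPM in the siAURKA libraries (n = 3), with log2 differences of 0.32, -1.18 and -0.50 in the pairs. DUSP10, a p38 and JNK phosphatase, was at 59.0 ± 22.9 and 59.0 ± 26.0 CPM. The log2 fold changes of PPM1A, PPM1B, PPM1D and PTPRR were 0.06, -0.20, -0.40 and -0.60. The 27 substrates of p38 and MK2, ATF1 among them, had a median of -0.02 (12 above 0, 15 below). HSPB1, the small heat shock protein phosphorylated by MK2, was at 446 ± 214 and 391 ± 172 CPM, and the RNA-binding proteins KHSRP and ZFP36L2 had log2 fold changes of -0.14 and -0.36. MKNK1, a kinase activated by p38, was lower in all 3 pairs at 25.7 ± 2.12 and 21.7 ± 1.40 CPM, a log2 fold change of -0.24.

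Transcripts known to be stabilised through p38 and MK2 had the lowest list median, which was above 0 without siNC replicate 2. Of 16 tested, 14 were lower in the edgeR fit. The median log2 fold change was -0.60 against -0.01 over all tested genes, and 0.35 without siNC replicate 2. Within pairs the median difference was 0.06 for number 1, -1.27 for number 2 and 0.03 for number 3. CXCL8, a neutrophil chemokine, was at 72.4, 846.9 and 126.2 CPM in siNC and 87.8, 229.8 and 131.9 CPM in siAURKA. The log2 differences of CXCL1 in pairs 1, 2 and 3 were 0.28, -1.82 and 0.38, and those of IER3 were 0.59, -1.11 and -0.14. Those of CSF2 were -0.22, -2.38 and -0.92 and those of VEGFA -0.33, -1.58 and 0.04.

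**Figure D5:**
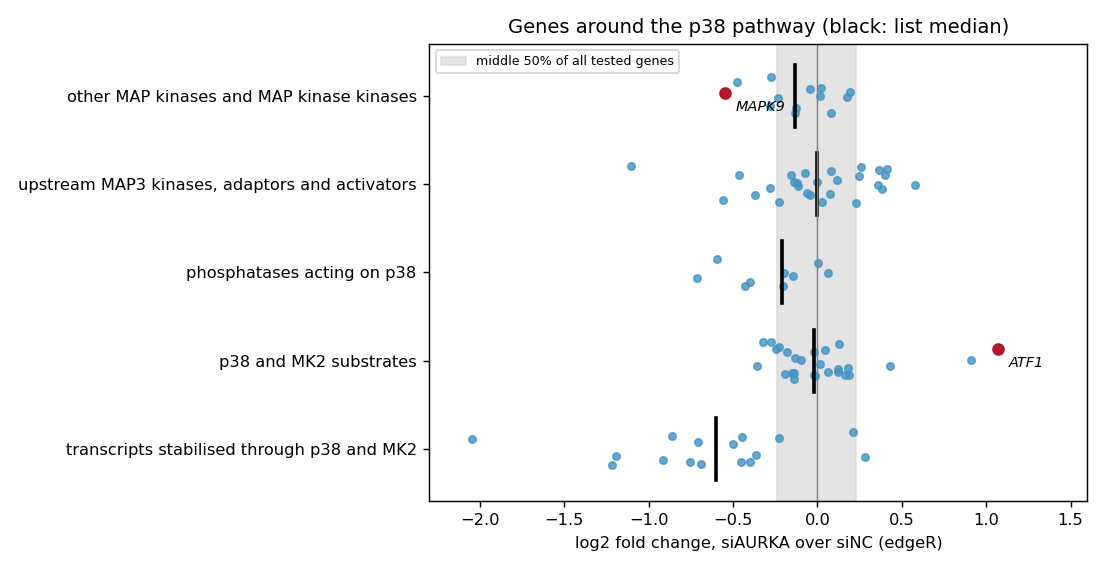
edgeR log2 fold change, siAURKA over siNC, of each tested gene in the 5 lists around the p38 pathway (points), with the list median in black, the middle 50% of all tested genes shaded, and the genes called by DESeq2 with the replicate block in red. Medians run from -0.60 for transcripts stabilised through p38 and MK2 to 0 for upstream MAP3 kinases, adaptors and activators.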

How the data were processed

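RNA was sequenced from LX2 cells in 2 groups of 3 libraries, grouped by their labels. The authors deposited estimated counts as whole numbers per Ensembl gene, and HISAT2 and GRCh38 are named per the submitters' processing notes. How reads were counted, with or without strand, and on which annotation is not given in the sources used here, so overlapping genes are uncertain. Among deposited values from 1 to 24, between 30.3% and 34.0% were multiples of 4. Most were not, so a unit of 4 per fragment is only an assumption. If 4 units stand for 1 fragment, a floor of 3 fragments (12 units) lies between 0.225 CPM and 0.514 CPM by library, which covers counting error alone.

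Of 58243 gene identifiers, 57980 matched GENCODE release 29 once the version was dropped. Promoter windows came from RefSeq (GRCh38.p14) and matched 8 of the 9 genes. Values were whole, so rounding altered nothing. The main test was edgeR 4.0.16 (R 4.3.3), a quasi-likelihood F-test with TMM scaling after filterByExpr, without covariates, with Benjamini-Hochberg adjustment over 18775 genes. Log2 CPM used a prior count of 2. Alternatives were the replicate block, DESeq2 1.42.0, limma-voom 3.58.1, upper-quartile scaling, no filter, values divided by 4 and each library left out. After the data were seen, DESeq2 with the replicate block was also run without each pair, and isoform shares with another length. The fits were tested on simulated data. Figures used matplotlib 3.10.9, and coding sequences were aligned with Biopython 1.88.

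Same-numbered libraries deviated together, with correlations of deviations from group means of 0.647, 0.477 and 0.302, each above 0.1. The numbers were therefore taken to pair the libraries. This pairing comes from the data, as the labels name no shared culture or day, and p-values reflect the spread of these libraries alone, which may be technical. Members and lists were chosen with earlier results of these data known. Named list genes are the 3 of highest level and the 3 of smallest p per list, plus any called by edgeR or DESeq2 with or without the block; some are not reported here.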

Additional observations from a re-analysis of the deposited data

How the results depend on the processing

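With the replicate block, edgeR called 0 genes in all, 0 of the 9 kinases and 0 of the listed pathway genes, whereas DESeq2 with the replicate block called 246, 1 and 2, and DESeq2 without it 17, 0 and 0. edgeR with 1 library left out called 0 to 2 genes in all, and DESeq2 with the replicate block without 1 pair 61 to 279 genes (122, 279 and 61 without number 1, 2 and 3), 0 to 1 of the 9 and 0 to 2 of the listed genes. The log2 fold change of MAPK14 was below 0 in all settings run, at -1.76 with the replicate block in edgeR, -1.78 in DESeq2 with that block, -2.26 to -1.25 with 1 library left out and -2.49 to -1.29 with 1 pair left out. MAPK14 relative to its paralogues ran from -2.68 to -1.53. MAPK11 reversed to 0.0114 with limma-voom and to 0.33 and 0.30 without siNC replicate 2 or without both libraries numbered 2, over a range of -0.44 to 0.33. MAPK12, near 0, reversed to 0.0159 and 0.000935 with the replicate block in edgeR and DESeq2, 0.0274 with limma-voom, 0.0085 with upper-quartile scaling and 0.0224 without the filter. It ran from -0.25 to 0.36 with 1 library left out, being 0.22 without siAURKA replicate 1, and was 0.00112 and 0.19 without the pairs numbered 1 and 2. MAP2K6 reversed to 0.11 without the pair numbered 1, and ran from -1.12 to -0.014. MAP3K5 ran from -0.43 to 0.23, with 0.17 without siAURKA replicate 3, and MAPKAPK3 from -0.19 to 0.54, with -0.16 without siAURKA replicate 2. The causes were not tested. MAPK13, MAP2K3 and MAPKAPK2 kept their direction in all settings run. Depth was low for MAP2K6 and MAPK13, at 25 to 334 and 40 to 229 deposited units per library.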
